A study of Mus musculus with 14 samples.

Results

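The genes described here are 52 of the 19938 genes measured in mouse duodenum: the secreted Wnt ligands, their receptors, the R-spondins, the secreted Wnt antagonists, and the feedback and nuclear genes of the canonical Wnt pathway. They were chosen by name, as every Wnt, Fzd, Dkk, Sfrp and Rspo gene with a single symbol on the array together with Lrp5, Lrp6, Wif1, Axin2, Nkd1, Notum, Rnf43, Znrf3, Sp5, Lef1 and Ctnnb1. The rule goes by gene names, though the set was drawn up with earlier results of these arrays known, and the brighter of 2 rows stands for Wnt4. The set holds 19 ligands, 12 receptors, 4 R-spondins, 9 antagonists, 6 feedback genes and 2 nuclear genes. Tcf7, a nuclear partner of beta-catenin, was not analysed here because none of its rows carried a single symbol.

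The study profiled duodenal adenomas of mice that lack Lrig1, a membrane protein that damps ErbB receptors and is carried by gut stem cells. Total RNA was read on 14 Affymetrix Mouse Gene ST arrays from 9 mice, and the values below are log2 signal. The tumor group held 6 duodenal tumors of 6 Lrig1-CreERT2/CreERT2 (Lrig1-/-) mice, and the adjacent group held adjacent normal duodenum from 5 of the same 6 animals. The wildtype group held normal duodenum of 3 mice without the insertion, and all mice were on a mixed 129S7/SvEv and C57/BL6 background, were described as age matched with no age given, and gave tissue from the proximal duodenum. Tumors and adjacent samples alike are Lrig1-null by genotype, so that comparison does not vary the Lrig1 genotype. The comparisons with wildtype vary genotype, and tumor against wildtype varies genotype and tissue state together.

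Wnt ligands are lipid-modified secreted proteins that bind a Frizzled (Fzd) receptor together with the co-receptor Lrp5 or Lrp6. Binding stops the breakdown of beta-catenin, the product of Ctnnb1, which then acts in the nucleus with TCF and LEF factors. Sfrp, Wif1 and most Dkk proteins block the ligands or co-receptors outside the cell. R-spondins raise receptor levels by removing the ubiquitin ligases Rnf43 and Znrf3. Axin2, Nkd1, Notum, Rnf43, Znrf3 and Sp5 are induced by the pathway and dampen it. In the intestine the pathway maintains the crypt stem cells.

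RefSeq promoter windows of the GRCm38.p6 build, running from 250 bases before to 50 bases after a gene start, were matched to 34 of the 52 genes. They were searched on both strands for the TCF/LEF core in 4 forms: CTTTGAT, the related CTTTGTT, the related CTTTGAA and the related CTTTGTA. Windows of 4 genes with changed signal are shown 5′ to 3′ on the gene's own strand, chosen after their values were seen, as the called feedback genes and, among the called ligands and receptors that had a window, those with the lowest p: the feedback genes Sp5 (chr2:70474673-70474972, plus strand) and Axin2 (chr11:108920099-108920398, plus strand), the ligand Wnt3 (chr11:103773925-103774224, plus strand) and the receptor Fzd1 (chr5:4758167-4758466, minus strand). Capitals mark a core match on either strand, and no printed matches share a base.
Sp5: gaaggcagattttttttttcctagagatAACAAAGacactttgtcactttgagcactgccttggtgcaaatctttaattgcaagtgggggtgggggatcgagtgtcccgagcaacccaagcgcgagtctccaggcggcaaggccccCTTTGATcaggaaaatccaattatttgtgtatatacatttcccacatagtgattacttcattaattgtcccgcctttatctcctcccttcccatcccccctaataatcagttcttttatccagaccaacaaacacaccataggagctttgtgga
Axin2: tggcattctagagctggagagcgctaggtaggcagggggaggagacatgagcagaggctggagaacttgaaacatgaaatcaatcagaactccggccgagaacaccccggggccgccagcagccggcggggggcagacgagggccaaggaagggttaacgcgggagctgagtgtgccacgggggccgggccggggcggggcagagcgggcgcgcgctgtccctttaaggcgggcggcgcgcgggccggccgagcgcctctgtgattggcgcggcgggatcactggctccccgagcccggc
Wnt3: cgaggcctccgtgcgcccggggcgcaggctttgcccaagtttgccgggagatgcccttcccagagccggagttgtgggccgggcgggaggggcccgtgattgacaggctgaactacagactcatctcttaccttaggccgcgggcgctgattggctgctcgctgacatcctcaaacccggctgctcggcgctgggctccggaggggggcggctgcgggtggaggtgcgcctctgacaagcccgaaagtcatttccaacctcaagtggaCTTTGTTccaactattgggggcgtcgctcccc
Fzd1: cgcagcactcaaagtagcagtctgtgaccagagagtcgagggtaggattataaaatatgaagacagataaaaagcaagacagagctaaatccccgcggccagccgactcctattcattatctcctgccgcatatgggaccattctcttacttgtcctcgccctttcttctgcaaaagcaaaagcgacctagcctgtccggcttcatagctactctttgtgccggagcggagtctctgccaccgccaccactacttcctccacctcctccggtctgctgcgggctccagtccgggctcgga

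The Sp5 window held AACAAAG, the core read on the other strand, from position -222 and CTTTGAT from position -104, counted from the gene start. The Wnt3 window held CTTTGTT from position 19, inside the transcribed part, and the windows of Axin2 and Fzd1 held no match to these letters. Across the set 7 of 42 windows had a match (16.7%), against 5544 of 32851 windows of all genes (16.9%). The median GC content was 67.0% over the windows of these genes and 52.7% over all windows. A match is a string of letters and was not tested as a binding site.

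Lrig1 signal, read as a check of the genotype, lay at 7.65 to 8.54 in tumors, at 6.95 to 7.40 in adjacent tissue, and at 9.54, 9.34 and 8.22 in wildtype duodenum. Against wildtype it differed by -0.96 ± 0.24 (SE) on the log2 scale in tumors (limma, adjusted p = 0.0162). In adjacent tissue it differed by -1.84 ± 0.25 (adjusted p = 0.0511), which misses the threshold of 0.05. It was 0.88 ± 0.17 higher in tumors than in adjacent tissue (adjusted p = 0.00102). Both tissues share the null genotype, and the source of this difference in signal was not tested. Pancreatic acinar transcripts marked 4 of the 8 non-tumor arrays, adjacent samples 1 and 2 and wildtype samples 1 and 3, with a list mean of 13.4 to 14.2 over 10 measured genes. The other 4 lay at 7.27 to 7.45, and the 6 tumors at 7.33 to 9.86. Adjacent samples 1 and 2 are also the adjacent samples of mice whose ID begins with F, so these splits coincide there. Wildtype sample 1 carried 8 gastric pit cell genes at a mean of 13.52, within the tumors' 12.70 to 13.92, whereas the other wildtype and all adjacent samples lay at 6.30 to 8.91. The labelled epithelium was present on every array, with 7 epithelial markers at a mean of 12.49 to 13.15, but enterocyte markers averaged 10.77 to 11.24 in tumors, against 12.98 to 13.69 in adjacent and 12.29 to 13.57 in wildtype samples. The labels name epithelium, but 8 smooth muscle markers also gave signal, with a list mean of 8.60 to 11.08 in tumors, 9.56 to 10.62 in adjacent and 10.15 to 11.05 in wildtype samples.

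The question of the first comparison was how Wnt pathway genes differ between a tumor and the duodenum beside it. In tumors the co-receptor Lrp5, the antagonist Sfrp1 and the receptor Fzd1 were higher and the feedback genes Sp5 and Axin2 were lower. Of the 52 genes 16 passed an adjusted p of 0.05 in limma (30.8%), against 31.7% of all genes, so their share was near the background. Higher signal was called for 11 members where the background is 19.1%, and lower signal for 5 where it is 12.6%. The median log2 fold change was 0.06 for the members and 0.04 for all genes, and the median size of the change was 0.11 and 0.15. Lrp5 and Sfrp1 were the only 2 members to reach a 2-fold change. The 6 tumors and 5 adjacent samples did not overlap for 5 members, Lrp5, Fzd1, Sfrp1, Sp5 and Ctnnb1, where the background is 17.2% of all genes. Of the 16 called members 12 moved in the same direction in all 5 mice that gave both tissues, as did 17 of all 52 members. The calls use the same samples, so this count is not separate evidence, and the share over all genes was not counted.

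The count depended on the adjacent samples and on the block. It was 10 without adjacent sample 3 (5232 of all 19938 genes) and 10 without the mouse as a block (4811 of all genes). Against the adjacent samples with acinar transcripts it was 3 (Lrp5, Sp5 and Fzd1), with 2181 of all genes called. Within the 5 tumor and adjacent arrays of letter F it was 2 (Lrp5 and Sp5), with 1719 of all genes called. Within the 6 tumor and adjacent arrays of letter B it was 17, with 5696 of all genes called. The fits within a letter also held the wildtype arrays of that letter, which enter the estimate of spread. The main fit called 6313 of all genes, more than each of these settings. Lrp5 and Sp5 passed in 22 of 22 alternative settings.

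**Figure D1:**
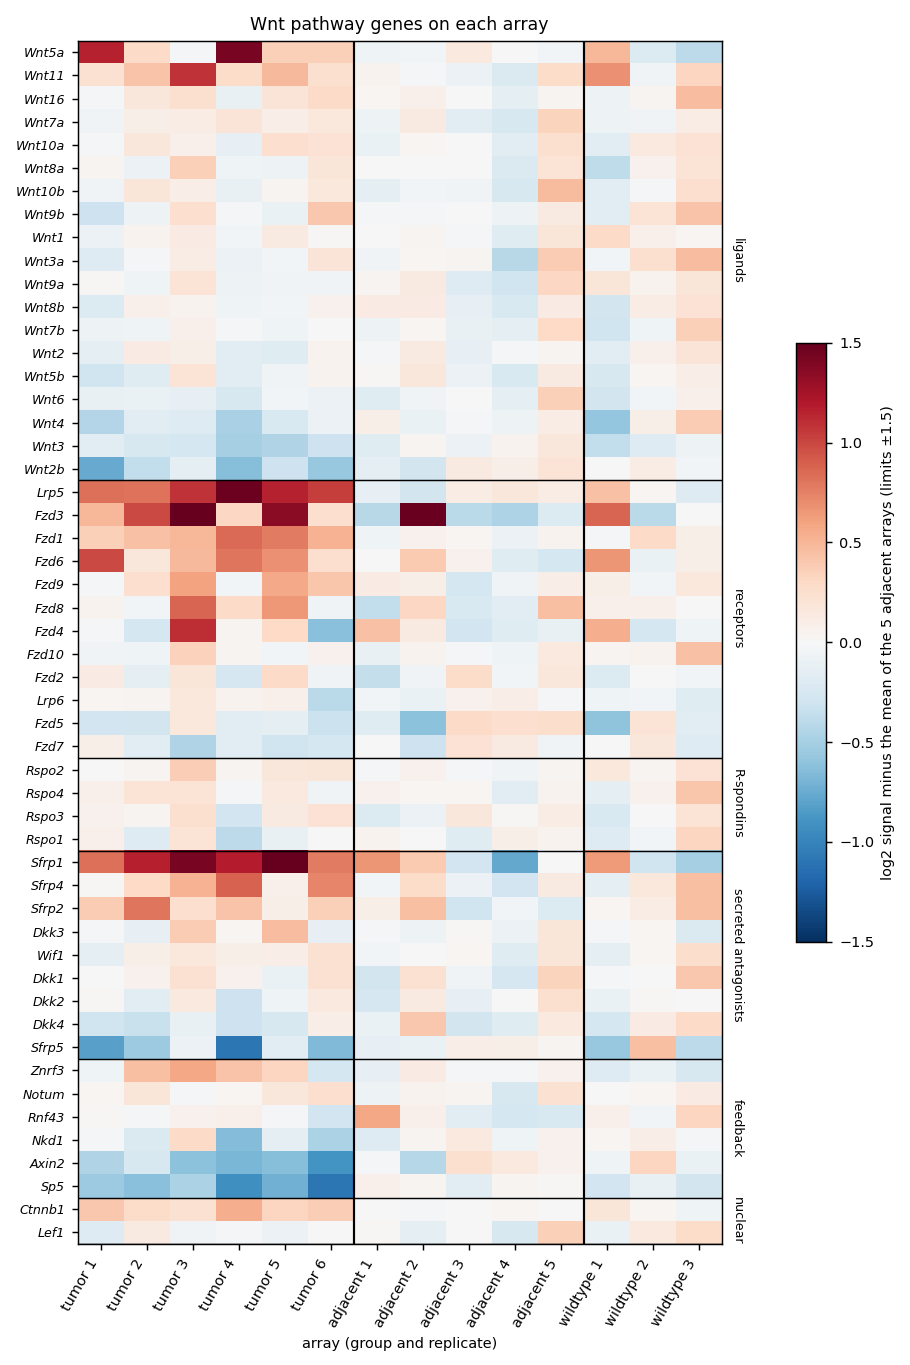
Log2 signal of the 52 genes (rows, grouped by role) on each of the 14 arrays (columns, tumor, adjacent, wildtype from left to right), drawn as the difference from the gene's mean over the 5 adjacent samples. Lrp5 and Sfrp1 stand above 0 in all 6 tumors, Sp5 stands below 0 in all 6, and most other genes stay close to 0.

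Of 19 ligands, 2 were higher in tumors and 2 were lower (21.1% called, against 31.7% of all genes). The median log2 fold change was 0.01. Wnt5a, a ligand best known for signalling outside the beta-catenin branch, had the largest increase. Wnt5a ran from 7.57 to 9.02 in tumors (median 7.95), against 7.53, 7.55, 7.74, 7.58 and 7.56 in adjacent samples 1 to 5 and 8.09, 7.38 and 7.20 in wildtype samples 1 to 3. Tumors 1 and 4 were high, at 8.75 and 9.02, the other 4 tumors lay at or below 7.95, and the groups overlapped. The log2 fold change was 0.56 ± 0.20 (SE; limma, adjusted p = 0.0424), and the tumor was higher in 5 of 5 mice. Wnt11, another ligand of the branch outside beta-catenin, was higher in tumors by 0.47 ± 0.14 (adjusted p = 0.0209), in 4 of 5 mice, and tumor 3 stood highest at 8.32. Wnt5a failed the threshold when tumor 1, 4 or 6 or adjacent sample 1, 3, 4 or 5 was left out (0.39 to 0.62, adjusted p 0.0584 to 0.115) and Wnt11 when adjacent sample 2 or 4 was (0.41 to 0.42, adjusted p 0.0515 to 0.06). Wnt5a also failed when the arrays were rescaled to a common median (0.53, adjusted p = 0.0788) or by quantiles (0.50, adjusted p = 0.084), and over the 5 pairs alone with the mouse as a fixed block (0.48, adjusted p = 0.0711).

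The ligands that fell were Wnt3, which Paneth cells supply to the stem cells beside them, and Wnt2b, which the mesenchyme makes. Wnt3 ran from 6.20 to 6.53 in tumors (median 6.41), against 6.51, 6.73, 6.61, 6.75 and 6.87 in adjacent samples 1 to 5 and 6.33, 6.51 and 6.62 in wildtype samples 1 to 3. Tumor 1 reached the adjacent range, and all 5 mice had less in the tumor (log2 fold change -0.33 ± 0.08, adjusted p = 0.00387). Wnt2b signal in the 6 tumors had a low of 7.49, a median of 7.77 and a high of 8.10, against 8.11, 7.97, 8.38, 8.33 and 8.45 in adjacent samples 1 to 5 and 8.24, 8.35 and 8.21 in wildtype samples 1 to 3. Tumor 3 reached the adjacent range and no tumor reached the wildtype range, and 4 of 5 mice had less in the tumor (log2 fold change -0.45 ± 0.11, adjusted p = 0.00563). Over the 5 pairs alone, with the mouse as a fixed block, Wnt2b failed (-0.41, adjusted p = 0.0698). Of 6 measured Paneth cell markers 3 (Lyz1, Itln1 and Defa24) were lower in tumors, the direction of Wnt3, where 12.6% of all genes were lower. Mmp7 (-0.69) and Ang4 (-0.42) lay lower and Pla2g2a (0.30) higher, without passing. The list mean was 8.77 to 10.98 in tumors, against 10.13 to 11.39 in adjacent tissue. In RNA from mixed cells, fewer cells of a type and less RNA per cell cannot be told apart. The part of Paneth cells in the Wnt3 result was not tested. The other 15 ligands did not pass, and Wnt4, a ligand that acts in both branches, came nearest at -0.25 ± 0.12 (adjusted p = 0.114). Wnt4 is read by 2 transcript clusters, of which the brighter was used, and the mean of both gave -0.39 (adjusted p = 0.0155). The remaining 14 (Wnt1, Wnt2, Wnt3a, Wnt5b, Wnt6, Wnt7a, Wnt7b, Wnt8a, Wnt8b, Wnt9a, Wnt9b, Wnt10a, Wnt10b and Wnt16) lay between -0.12 for Wnt6 and 0.13 for Wnt16.

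Where 19.1% of all genes were higher and 12.6% lower, 5 of 12 receptors were higher in tumors and 0 were lower. The median log2 fold change was 0.20. Lrp5 (transcript cluster 10464504), the co-receptor that carries the signal with a Frizzled, changed most. Lrp5 ran from 10.86 to 11.52 in tumors (median 11.11), against 9.93, 9.77, 10.15, 10.22 and 10.16 in adjacent samples 1 to 5 and 10.49, 10.08 and 9.85 in wildtype samples 1 to 3. Every tumor lay above every adjacent and wildtype sample. The log2 fold change over adjacent tissue was 1.08 ± 0.11 (adjusted p = 7.56e-06), or 2.11-fold, and within the 5 mice the difference ran from 0.92 to 1.36. Lrp6, the second co-receptor, did not show this. Lrp6 ran from 9.66 to 10.21 in tumors (median 10.11), against 10.02, 9.96, 10.12, 10.17 and 10.05 in adjacent samples 1 to 5 and 9.996, 10.01 and 9.88 in wildtype samples 1 to 3. Tumor 6 was the lowest of all tumors, and the log2 fold change was -0.01 ± 0.08 with a 95% interval of -0.19 to 0.16 (adjusted p = 0.949), which lies below the interval of 0.84 to 1.33 for Lrp5.

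Fzd1 (transcript cluster 10527936), a Wnt receptor whose promoter window is shown above, was higher in tumors as well. Fzd1 ran from 8.26 to 8.75 in tumors (median 8.40), against 7.84, 7.96, 7.93, 7.81 and 7.95 in adjacent samples 1 to 5 and 7.88, 8.19 and 7.99 in wildtype samples 1 to 3. Its tumors did not overlap with either other group, and the log2 fold change was 0.59 ± 0.08 (adjusted p = 8.96e-05), higher in 5 of 5 mice by 0.43 to 0.87. Fzd6, a receptor linked to planar cell polarity, was more variable. Fzd6 ran from 7.50 to 8.32 in tumors (median 7.92), against 7.32, 7.72, 7.39, 7.14 and 7.06 in adjacent samples 1 to 5 and 7.99, 7.23 and 7.41 in wildtype samples 1 to 3. Adjacent sample 2 and wildtype sample 1 reached into the tumor range, and the log2 fold change was 0.54 ± 0.15 (adjusted p = 0.0114).

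Fzd3, which also works in planar cell polarity, had the widest spread of the 52 genes over the adjacent samples. Fzd3 signal in the 6 tumors had a low of 6.46, a median of 6.95 and a high of 7.74, against 5.79, 7.68, 5.81, 5.75 and 6.002 in adjacent samples 1 to 5 and 7.08, 5.80 and 6.19 in wildtype samples 1 to 3. Adjacent sample 2 stood well above the other adjacent samples and level with the highest tumors, and the log2 fold change was 0.85 ± 0.30 (adjusted p = 0.0402). Fzd9, another Frizzled receptor, rose by 0.31 ± 0.10 (adjusted p = 0.0316). Both calls lay close to the threshold. Fzd3 failed without tumor 2, 3, 5 or 6 or adjacent sample 1, 3, 4 or 5 (0.69 to 0.95, adjusted p 0.0506 to 0.12). It also failed under both rescalings (0.83 and 0.82, adjusted p = 0.0517 and 0.069). Without adjacent sample 2 the Fzd3 value was larger, at 1.155 (adjusted p = 0.00172). Fzd9 failed without tumor 3, 5 or 6 or adjacent sample 3, 4 or 5 (0.26 to 0.33, adjusted p 0.0563 to 0.098). Among receptors that did not pass, Fzd5, the main Frizzled of Paneth cells, differed by -0.17 ± 0.16 (95% interval -0.51 to 0.18), Fzd7, a receptor of the intestinal stem cell, by -0.23 ± 0.09 (adjusted p = 0.0723), Fzd8 by 0.31 ± 0.16, Fzd4 by 0.10 ± 0.22, Fzd2 by 0.02 ± 0.11 and Fzd10 by 0.06 ± 0.08. The 4 R-spondins, which amplify Wnt signals through Lgr receptors, did not pass. Rspo3, the main R-spondin around intestinal crypts, differed by 0.07 ± 0.10 (95% interval -0.14 to 0.28), Rspo2 by 0.14 ± 0.06 (adjusted p = 0.106, higher in 5 of 5 mice), Rspo4 by 0.09 ± 0.08 and Rspo1 by -0.08 ± 0.09.

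**Figure D2:**
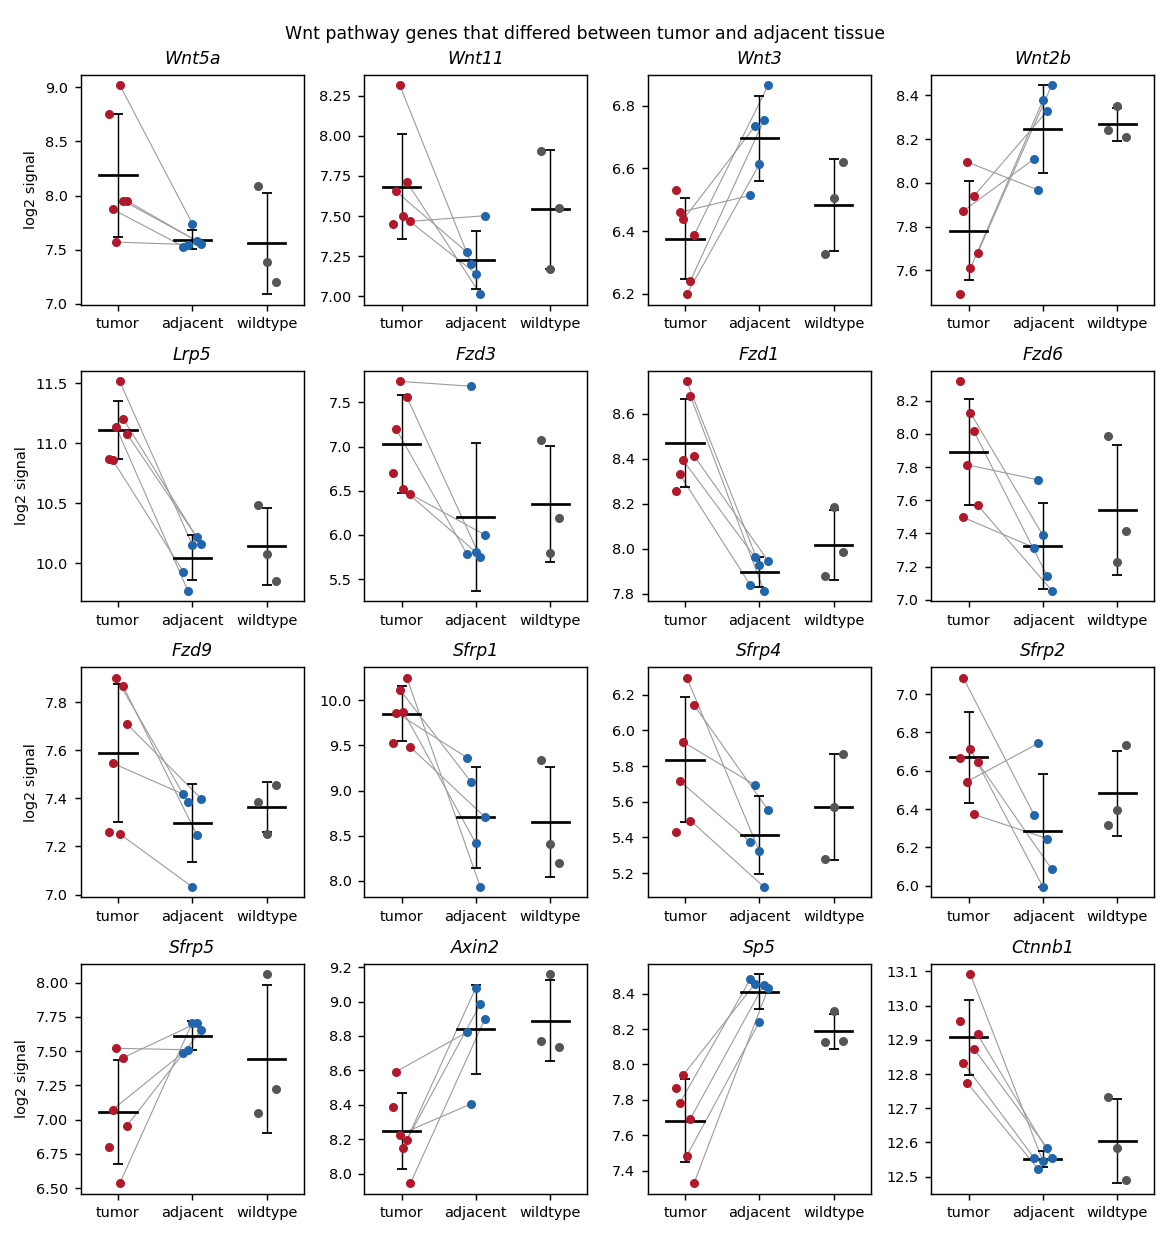
Log2 signal of the 16 genes called between tumor and adjacent tissue, 1 panel a gene, with each sample as a point, mean and SD as bars, and lines joining the samples that share a mouse. For Lrp5 the 6 tumors lie at 10.86 to 11.52, above all 5 adjacent samples at 9.77 to 10.22, whereas the groups of Fzd3 and Wnt5a overlap.

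The secreted antagonists split, with 3 of 9 higher and 1 lower in tumors, where 19.1% of all genes were higher and 12.6% lower. Sfrp1 (transcript cluster 10570957), which binds Wnt ligands through a Frizzled-like domain, changed most of all 52 genes. Sfrp1 signal in the 6 tumors had a low of 9.48, a median of 9.87 and a high of 10.25, against 9.37, 9.09, 8.41, 7.93 and 8.71 in adjacent samples 1 to 5 and 9.34, 8.41 and 8.20 in wildtype samples 1 to 3. All 6 tumors lay above all adjacent and wildtype samples, and within mice the difference ran from 0.50 to 2.32. The log2 fold change was 1.17 ± 0.23 (adjusted p = 0.00104), or 2.25-fold. It was smaller against adjacent samples 1 and 2, the adjacent samples with acinar transcripts (0.66, adjusted p = 0.16).

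Sfrp5, a relative of Sfrp1, moved the other way. Sfrp5 signal in the 6 tumors had a low of 6.54, a median of 7.01 and a high of 7.52, against 7.49, 7.51, 7.71, 7.71 and 7.65 in adjacent samples 1 to 5 and 7.05, 8.06 and 7.22 in wildtype samples 1 to 3. Tumor 3 reached the adjacent range and the other 5 tumors lay below it; the log2 fold change was -0.54 ± 0.17 (adjusted p = 0.023), lower in 4 of 5 mice. Sfrp2 and Sfrp4, antagonists made mostly by stromal cells, were higher in tumors by 0.38 ± 0.13 (adjusted p = 0.0324, in 4 of 5 mice) and 0.45 ± 0.14 (adjusted p = 0.0202, in 5 of 5). Each of these calls was lost when any of several samples was left out. Sfrp5 failed without tumor 4 or 6 or adjacent sample 3 or 5 (-0.52 to -0.42, adjusted p 0.0591 to 0.0773). Sfrp4 failed without tumor 4 or 6 or adjacent sample 3 (0.35 to 0.40, adjusted p 0.062 to 0.0807). Sfrp2 failed without tumor 2, 4 or 6 or adjacent sample 1, 3 or 5 (0.30 to 0.38, adjusted p 0.0698 to 0.116). Over the 5 pairs alone, with the mouse as a fixed block, Sfrp5 (-0.51, adjusted p = 0.0541) and Sfrp2 (0.38, adjusted p = 0.098) failed. Of 11 fibroblast markers 5 were higher in tumors, the direction of Sfrp1, Sfrp2 and Sfrp4, where 19.1% of all genes were higher. None was called lower, though Thy1 (-0.28), Col6a1 (-0.21) and Fap (-0.17) lay lower, and Pdgfra, Pdgfrb and Dpt higher, without passing. The list mean was 8.47 to 8.96 in tumors, against 8.11 to 8.57 in adjacent and 8.22 to 8.59 in wildtype samples. Of 7 markers of subepithelial telocytes, another stromal cell type, 1 was higher and 0 were lower. The part of these cells in the results was not tested. The 8 smooth muscle markers showed 0 calls. Dkk1 to Dkk4 and Wif1 did not pass, and Dkk4, the Dkk gene that the pathway itself induces, differed by -0.19 ± 0.11 (95% interval -0.42 to 0.04). Dkk1 differed by 0.08 ± 0.10, Dkk2 by -0.04 ± 0.08, Dkk3 by 0.11 ± 0.11 and Wif1 by 0.10 ± 0.08.

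The feedback genes serve as a readout of canonical signalling in many tissues. Where 19.1% of all genes were higher and 12.6% lower, 0 of these 6 were higher in tumors and 2 were lower. Sp5 (transcript cluster 10472688), a repressor induced by beta-catenin and the gene above with matches on both strands, had the lowest p among them. Sp5 ran from 7.33 to 7.94 in tumors (median 7.74), against 8.48, 8.46, 8.24, 8.45 and 8.43 in adjacent samples 1 to 5 and 8.13, 8.30 and 8.13 in wildtype samples 1 to 3. Every tumor lay below every adjacent and wildtype sample, and within mice the difference ran from -1.10 to -0.51. The log2 fold change was -0.74 ± 0.09 (adjusted p = 2.08e-05), so adjacent signal was 1.67-fold that of tumors.

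Axin2 (transcript cluster 10382228), the scaffold of the beta-catenin destruction complex and a direct target of the pathway, was also lower. Axin2 ran from 7.94 to 8.59 in tumors (median 8.21), against 8.82, 8.41, 9.08, 8.99 and 8.90 in adjacent samples 1 to 5 and 8.77, 9.16 and 8.74 in wildtype samples 1 to 3. Tumor 2 lay above adjacent sample 2, while all 5 mice had less in the tumor, by -0.95 to -0.18. The log2 fold change was -0.60 ± 0.12 (adjusted p = 0.00144). Its value depended on the mice used: it was -0.89 within letter B (adjusted p = 0.000306) and -0.21 within letter F (adjusted p = 0.469), and -0.33 against the adjacent samples with acinar transcripts (adjusted p = 0.231). The difference between the letters was not tested.

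The remaining 4 feedback genes did not pass. Znrf3 ran from 8.35 to 9.20 in tumors (median 8.99), against 8.50, 8.74, 8.59, 8.59 and 8.68 in adjacent samples 1 to 5 and 8.43, 8.52 and 8.38 in wildtype samples 1 to 3. The ubiquitin ligase Znrf3, which removes Frizzled receptors, was above all adjacent samples in tumors 2 to 5 and below them in tumor 6, at 0.26 ± 0.12 (adjusted p = 0.113), and passed when tumor 6 was left out (0.36, adjusted p = 0.0122). Rnf43 ran from 9.77 to 10.14 in tumors (median 10.06), against 10.65, 10.14, 9.90, 9.80 and 9.84 in adjacent samples 1 to 5 and 10.15, 10.03 and 10.39 in wildtype samples 1 to 3. Its partner Rnf43 had adjacent sample 1 above all tumors and a log2 fold change of -0.03 ± 0.12 (95% interval -0.29 to 0.22).

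Nkd1 ran from 7.92 to 8.85 in tumors (median 8.39), against 8.37, 8.61, 8.72, 8.51 and 8.64 in adjacent samples 1 to 5 and 8.60, 8.67 and 8.54 in wildtype samples 1 to 3. Nkd1, which binds Dishevelled, had its highest and lowest values both among tumors, at -0.21 ± 0.12 (adjusted p = 0.227), and passed when tumor 3 was left out (-0.32, adjusted p = 0.0384). Notum ran from 6.89 to 7.16 in tumors (median 7.01), against 6.83, 6.96, 6.95, 6.66 and 7.13 in adjacent samples 1 to 5 and 6.91, 6.94 and 7.03 in wildtype samples 1 to 3. Notum, a secreted enzyme that removes the lipid from Wnt ligands, overlapped in all groups, at 0.11 ± 0.08 (95% interval -0.05 to 0.27).

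Both nuclear genes were measured, and Ctnnb1 was higher in tumors. Ctnnb1 ran from 12.78 to 13.09 in tumors (median 12.90), against 12.56, 12.52, 12.55, 12.58 and 12.56 in adjacent samples 1 to 5 and 12.73, 12.58 and 12.49 in wildtype samples 1 to 3. All 6 tumors lay above all 8 other samples, though the values are close to the top of the scale, and the log2 fold change was 0.35 ± 0.06 (adjusted p = 0.000479), or 1.28-fold. This is transcript signal, and beta-catenin activity depends on the protein's stability and place in the cell, which the arrays do not measure. Lef1, a nuclear partner of beta-catenin, overlapped between groups. Lef1 ran from 6.55 to 6.88 in tumors (median 6.71), against 6.77, 6.59, 6.75, 6.51 and 7.11 in adjacent samples 1 to 5 and 6.64, 6.89 and 7.02 in wildtype samples 1 to 3. Its log2 fold change was -0.03 ± 0.09 (95% interval -0.22 to 0.17). T cells also express Lef1, and 8 of 9 measured T cell markers were lower in tumors, where 12.6% of all genes were lower. Themis lay higher (0.38) without passing. The T cell list mean was 7.01 to 7.44 in tumors, against 8.17 to 8.43 in adjacent tissue. The part of T cells in the Lef1 value was not tested.

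The second comparison set tumors against duodenum of mice with intact Lrig1. The members called were Lrp5, Fzd1, Sfrp1 and Ctnnb1, higher in tumors, and Sp5, Axin2 and Wnt2b, lower in tumors, 7 of 52 (13.5%) against 14.1% of all genes in limma. Higher calls made up 9.65% and lower calls 4.48% of all genes. The tumor and wildtype samples did not overlap for 7 members, the same 7, where 13.6% of all genes had no overlap. Both comparisons use the same 6 tumors, so these values are not separate evidence for those against adjacent tissue. Lrp5 changed by 0.97 ± 0.16 (SE; adjusted p = 0.00182) and passed in 17 of 17 alternative settings. Sfrp1 changed by 1.2 ± 0.32 (adjusted p = 0.0223), Fzd1 by 0.45 ± 0.12 (adjusted p = 0.0202) and Ctnnb1 by 0.30 ± 0.09 (adjusted p = 0.0305). The called feedback genes and the ligand Wnt2b were lower. Axin2 changed by -0.64 ± 0.17 (adjusted p = 0.0224), Sp5 by -0.50 ± 0.13 (adjusted p = 0.0162) and Wnt2b by -0.49 ± 0.15 (adjusted p = 0.0489). Wnt2b averaged 7.78 ± 0.23 (SD, n = 6) in tumors and 8.27 ± 0.08 (n = 3) in wildtype duodenum.

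With 3 wildtype samples these calls leaned on single arrays. Calls over all genes in these settings are not given here, and whether the members differ from other genes in this was not tested. The count of members was 2 without wildtype sample 2 and 1, Lrp5, without wildtype sample 3. Without wildtype sample 1, the one with gastric pit transcripts, it was 7, of which 5 were among the 7 above; Fzd1 (0.38, adjusted p = 0.0531) and Wnt2b (-0.50, adjusted p = 0.0596) then failed. Axin2, Sfrp1 and Sp5 each failed without wildtype sample 2 or 3, at -0.71 to -0.50 for Axin2 (adjusted p 0.0539 to 0.159), 0.98 to 1.08 for Sfrp1 (adjusted p 0.125 to 0.139) and -0.53 to -0.45 for Sp5 (adjusted p 0.0543 to 0.106). Fzd1 failed without wildtype sample 3 as well (0.44, adjusted p = 0.0877), Ctnnb1 without tumor 1 or 4 or wildtype sample 2 or 3 (0.25 to 0.30, adjusted p 0.0527 to 0.164), and Wnt2b without any single wildtype sample or any single tumor other than tumor 3 (-0.52 to -0.43, adjusted p 0.0556 to 0.202). Among members that did not pass here, Wnt5a differed by 0.63 ± 0.28 (adjusted p = 0.161), Fzd3 by 0.68 ± 0.42 (adjusted p = 0.343), Fzd6 by 0.35 ± 0.21 (adjusted p = 0.325), Sfrp5 by -0.39 ± 0.24 (adjusted p = 0.336) and Wnt3 by -0.11 ± 0.11 (adjusted p = 0.599).

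The third comparison, adjacent Lrig1-null tissue against wildtype duodenum, asks what differs without a tumor. No member was called by limma, and 0 of 52 had an unadjusted p below 0.05, against 559 of all 19938 genes; the share of all genes called was 0%. Adjacent and wildtype samples overlapped for all 52 members, where 2.12% of all genes did not overlap. The lowest p belonged to Wnt3, at 0.22 ± 0.11 (unadjusted p = 0.0659). Lrp5 differed by -0.11 ± 0.17 (95% interval -0.47 to 0.25), Sfrp1 by 0.03 ± 0.33 (-0.68 to 0.74), Axin2 by -0.04 ± 0.18 (-0.42 to 0.33) and Sp5 by 0.24 ± 0.13 (-0.04 to 0.51). Each of these intervals includes 0, and a p that misses the threshold does not show that the groups are alike. Lrig1 itself missed the threshold in this comparison, at -1.84 ± 0.25 (limma, adjusted p = 0.0511).

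**Figure D3:**
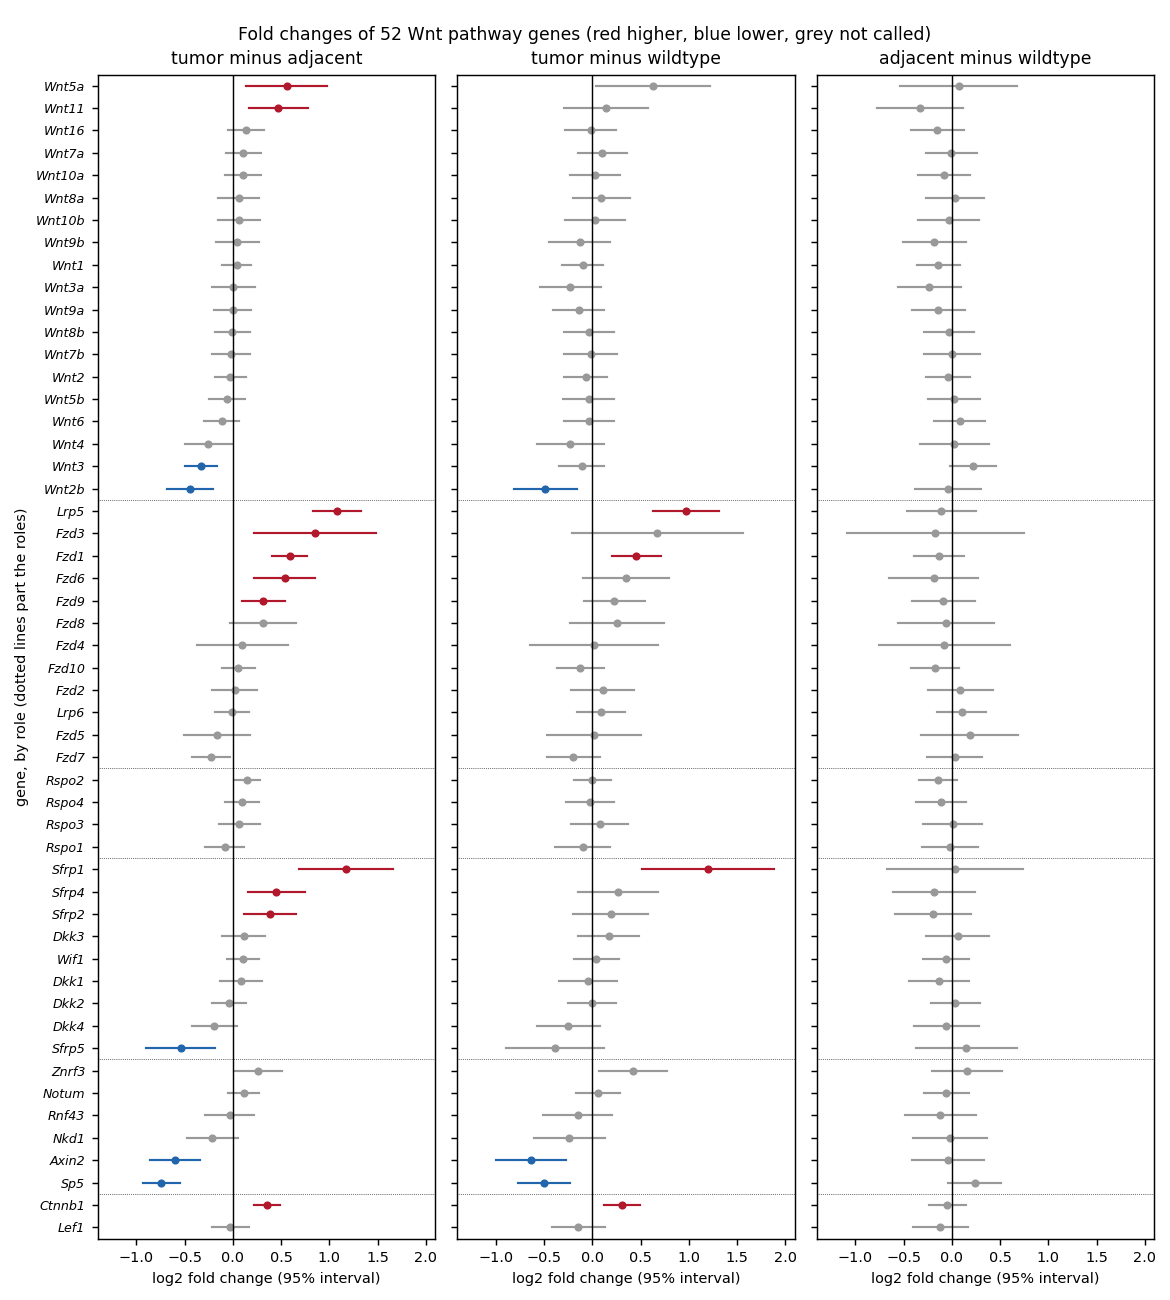
Log2 fold change of each of the 52 genes with its 95% interval in tumor versus adjacent, tumor versus wildtype and adjacent versus wildtype, with genes grouped by role. Lrp5 lies at 1.08 and 0.97 in the comparisons of tumors and at -0.11 between adjacent tissue and wildtype, where the intervals of all 52 genes include 0.

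Other genes of the pathway, from lists drawn up by role, were counted in the same way. Over all genes 31.7% were called between tumor and adjacent tissue, 19.1% higher and 12.6% lower in tumors. Among 22 genes for Wnt secretion, co-receptors and extracellular modulators 9 were higher and 2 lower in tumors than in adjacent tissue (50% called), with a median log2 fold change of 0.20. Tspan12, a tetraspanin that assists Fzd4 signalling, differed by 1.85 ± 0.22 (adjusted p = 1.7e-05), the heparan sulfate carrier Sdc1 by 1.34 ± 0.10, Porcn, the enzyme that attaches the lipid to Wnt ligands, by 1.29 ± 0.16, and the R-spondin receptor Lgr4 by 1.02 ± 0.13. The stem cell receptor Lgr5, itself a Wnt target, was lower in tumors, at -1.41 ± 0.22 (adjusted p = 0.000188), as was the glypican Gpc4, at -0.34 ± 0.10. Of 25 genes of the cytoplasmic relay 4 were higher and 4 lower (32% called, near the share of all genes), with a median of -0.004. The planar polarity genes Vangl1 (1.05 ± 0.11) and Celsr1 (0.87 ± 0.26) led the increases, and the Dishevelled antagonist Dact2 (-0.53 ± 0.13) and the kinase Gsk3a (-0.43 ± 0.09) the decreases.

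Of 17 nuclear partners 3 were higher and 6 lower (52.9% called), with a median of 0.06. The higher ones were Sox7 (0.42 ± 0.09), the beta-catenin antagonist Cby1 (0.39 ± 0.09) and the co-activator Pygo2 (0.37 ± 0.08). The co-repressors Tle4 (-0.88 ± 0.12), Tle1 (-0.47 ± 0.11) and Tle3 (-0.37 ± 0.14) and the beta-catenin inhibitor Ctnnbip1 (-0.33 ± 0.12) were among the lower ones. The rest were the co-activators Crebbp (-0.26 ± 0.09) and Ep300 (-0.24 ± 0.08). Of 19 measured crypt genes known as Wnt targets, 12 were higher and 1, Cdca7 (-0.39 ± 0.12), was lower (68.4% called), with a median of 0.44. Cd44, a hyaluronan receptor, differed by 2.92 ± 0.23, the transcription factor Sox9 by 2.27 ± 0.21, the Eph receptor Ephb3 by 1.62 ± 0.17 and the potassium channel subunit Kcne3 by 1.58 ± 0.16. The Wnt targets Lgr5, Sp5 and Axin2, all lower in tumors, were counted elsewhere and not in this list. These lists were written with earlier results of the same arrays known, so their direction is a description. Against wildtype, 10 of the 19 crypt targets were higher and 0 lower (median 0.41), 4 of the 22 secretion genes were higher and 0 lower, and 1 of the 25 relay genes was higher. Over all genes 9.65% were higher and 4.48% lower in that comparison.

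**Figure D4:**
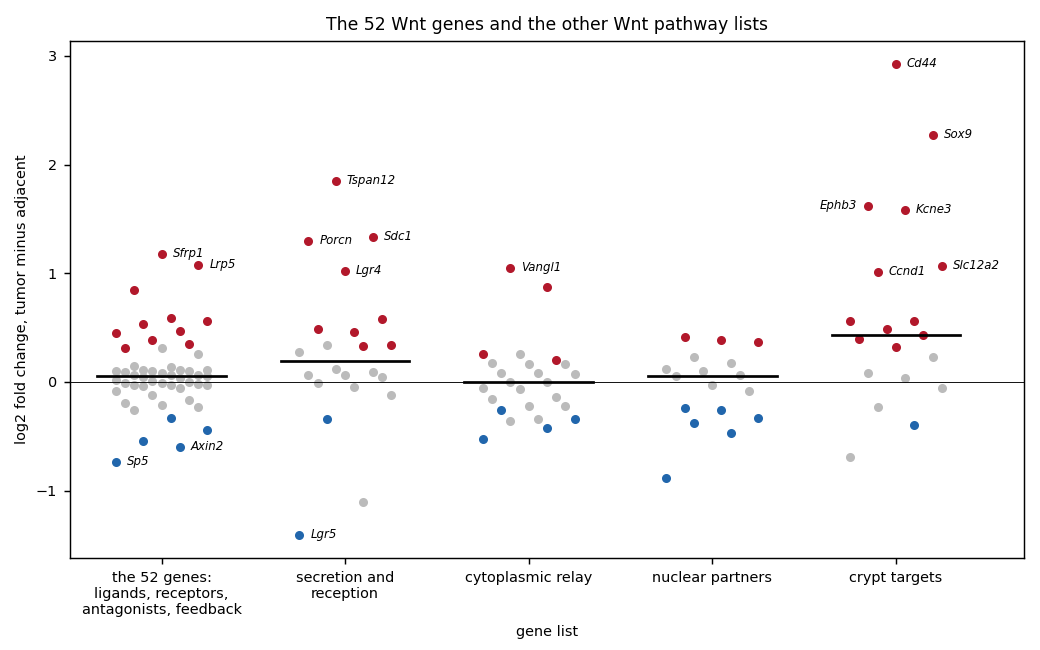
Log2 fold change of tumor over adjacent tissue for each gene (points) of the 52 and of 4 further Wnt lists, with a bar at each list's median. The medians are 0.06 for the 52 genes, 0.20 for secretion and co-receptor genes, -0.004 for the cytoplasmic relay, 0.06 for nuclear partners and 0.44 for crypt targets.

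No detection call came with the values, so no member was left out for low signal. A filter at the median gene's mean over all arrays (7.69) would keep 18 of the 52 members and leave out 34. Among these are 8 of the 16 called between tumor and adjacent tissue: Wnt3, Wnt11, Fzd3, Fzd6, Fzd9, Sfrp2, Sfrp4 and Sfrp5. Sfrp4 was the dimmest of these, with a mean of 5.63 over all arrays. The spread of the 52 members was like that of other genes, with a median SD of 0.18 over tumors (0.19 for all genes) and 0.17 over adjacent samples (0.16 for all genes). The number of arrays limits the precision.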

How the data were processed

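Total RNA of 6 tumor, 5 adjacent and 3 wildtype duodenal samples was read on 14 arrays. The deposited table holds log2 signal for 35556 transcript clusters, between 2.87 and 14.8; the unit was read from the values. Per the submitters' processing notes, the software was Affymetrix Expression Console 1.1 and the build mm9. Which background correction, normalization or filter the authors applied is not given in the sources used here. The medians of the arrays were 7.11 to 7.29, no array was a copy of another, and no further scaling was applied.

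Clusters with a single platform symbol (21789) were kept, those with several (1621) or none (12146) were not, and symbols were updated by gene identifier for 21698. The brightest of several clusters stood for a gene (999 genes; Wnt4 among the members), which left 19938 genes. The fit in limma 3.58.1 (R 4.3.3) used 3 group means over all 14 arrays, so the groups share an estimate of spread, with the mouse as a random block (correlation 0.334). Moderated two-sided p-values were adjusted by Benjamini-Hochberg over all genes, at 0.05, and an SE or interval given with a fold change comes from this fit. Mice in a group are separate animals. The labels name each sample's mouse, which pairs 5 tumors with adjacent tissue; deviations from group means correlated at 0.225 on average within a mouse (-0.0299 to 0.395) and at -0.0439 between mice.

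The members and all gene lists were chosen with earlier results of these data known. Values of each adjacent and wildtype array, with the lowest, median and highest tumor, are given for members called between tumor and adjacent tissue with a log2 fold change of at least 0.5 and for the feedback, nuclear and co-receptor genes, with Wnt2b and Wnt3 added after their values were seen; other members are given by single values, ranges and counts. Of the further lists, up to 4 called genes in each direction and Lgr5 are named, with Crebbp and Ep300 added. Measured list sizes leave out listed genes with no single-symbol cluster, and Mmp7 and Pdgfra each stand in 2 lists. Alternatives covered the scaling, the choice of cluster, dim genes, array weights, the block, the acinar and ID-letter splits and each array left out.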

Additional observations from a re-analysis of the deposited data

Results flagged for a closer look

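In each group of 5 or 6 samples the highest and lowest value of every member was set against Dixon's 95% critical value, and 10 of 104 sets had a sample that far from the others, where chance alone gives about 1 in 20. Tumor 3 stood alone at the top of the tumors for the ligand Wnt11, at 8.316 with the next tumor at 7.711, for the receptor Fzd10, at 7.362 with the next at 7.088, and for the ligand Wnt9a, at 7.736 with the next at 7.553. Tumor 6 stood alone at the bottom for the co-receptor Lrp6, at 9.658 with the next tumor at 10.09, and for the ubiquitin ligase Rnf43, at 9.773 with the next at 10.041.

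Among adjacent samples the receptor Fzd3 had the widest gap, with adjacent sample 2 at 7.683 and the next at 6.002. Adjacent sample 3 was the highest for Wnt5a, at 7.742 with the next at 7.583, and the lowest for Sp5, at 8.24 with the next at 8.431. Adjacent sample 4 was the lowest for the R-spondin Rspo4, at 6.373 with the next at 6.569. Adjacent sample 5 was the highest for the ligand Wnt10b, at 7.463 with the next at 6.947. The gaps for Sp5 and Wnt5a are narrow because the other adjacent samples of these genes lay close together.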

How the results depend on the processing

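The members called between tumor and adjacent tissue numbered 16. They were 8 with dim genes left out, where 18 members were tested, 10 with no replicate block (Fzd3, Fzd9, Sfrp2, Sfrp4, Wnt5a and Wnt11 failed), 3 against the acinar adjacent samples, 2 within ID letter F, and 10 to 17 with each array left out. The acinar and letter F settings use the same 2 adjacent samples, and fewer arrays enter both. Calls over all genes fell as well, from 6313 to 4811 with no replicate block, 2181 against the acinar adjacent samples and 1719 within letter F. The 5 pairs with a fixed replicate block gave 13, of which 12 were among the 16 (Wnt2b, Wnt5a, Sfrp2 and Sfrp5 failed), and the other settings 15 to 20. Against wildtype the 7 calls became 14 with array weights, 3 without the acinar non-tumor samples, which leaves 1 wildtype sample assumed to vary like the other groups, 1 against the acinar ones alone, and 1 to 7 with each array left out. Calls over all genes in these settings against wildtype are not given here. Between adjacent and wildtype tissue 0 members were called in all settings. Of the single-gene values under an alternative, 494 stayed on their side of the threshold, 8 passed newly, 4 of these for Wnt4, and 113 no longer passed, and no called gene changed sign; the values of Nkd1, Rnf43, Lef1 and Lrp6, which were not called, did so in some settings. Against adjacent tissue Fzd1 passed in 21 of 22 settings, Axin2, Ctnnb1 and Sfrp1 in 20. Rescaling moved the median of all genes by less than 0.1. The causes were not tested. The number of arrays, 3 in wildtype, limits what the comparisons with wildtype can show.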
